A study of Mus musculus with 20 samples.

Results

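The 31 genes described here are expressed in the brain mainly by microglia and by the macrophages at its borders, in meninges, choroid plexus and perivascular spaces. They were chosen by name, as markers of these cells, and all 31 were found among the 27179 genes of the table. Microglia depend on the receptor Csf1r and the transcription factors Spi1 and Irf8. In the resting state they carry receptors such as Cx3cr1, P2ry12 and Tmem119, and they supply most of the complement component C1q of the brain. Border macrophages share much of this programme and are told apart from microglia by Mrc1, Pf4, Cd163, Ms4a7 and a high level of Lyz2.

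RNA of whole brain tissue was sequenced in 20 libraries from mice of the strain C57BL/6, in 4 groups of 5. The groups were striatum of wild type mice, striatum of mice that lack Helios in all cells (full knockout of Ikzf2, the gene of this zinc finger protein), hippocampus of wild type mice and hippocampus of the knockout mice. Age, sex, the design of the knockout allele and any pooling of animals were not given in the sources used here. The labels do not state that libraries of a group came from separate animals, so p-values here rest on the spread among libraries, which may be technical. The level of a gene is given in RPKM, reads scaled to the length of the gene and to the reads of the library. In bulk tissue, fewer cells of a type and less RNA per cell cannot be told apart.

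Ikzf2 was read first as a check of the labels. In striatum it stood at 3.66, 2.81, 2.36, 2.09 and 2.31 RPKM in wild type 1 to 5 and at 1.11, 0.842, 1.09, 0.849 and 0.76 RPKM in knockout 6 to 10, with no overlap. In hippocampus it stood at 1.32, 1.58, 1.33, 1.61 and 0.782 RPKM in the libraries labelled wild type 1, 2, 3, 4 and 6, and at 1.43, 0.785, 0.353, 0.617 and 0.55 RPKM in those labelled knockout 5, 7, 8, 9 and 10. The library labelled knockout 5 thus lay within the wild type range and the one labelled wild type 6 level with knockout 7. Numbers 5 and 6 also carry opposite genotype labels in the 2 tissues. Genotype results are therefore given as labelled, and the leading genotype values and some of the counts also without these 4 libraries. Recovered reads in genes with no unsure decimal mark came to between 14709586 and 34715687 per library, and the 31 genes together had between 2302 and 6543 reads. A pair of libraries stood apart for these genes. Striatal wild type 4 had 144 RPKM summed over 9 meningeal fibroblast genes, against 4.55 to 28.1 in the other 9 striatal libraries. The hippocampal library labelled knockout 8 had the fewest reads, and relative to the tissue's median its genes deviated by 0.86 on the log2 scale in the shortest bin of gene length and by -0.72 in the longest.

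C1qc, C1qa, Ctss, Fcrls and Laptm5 had the highest median RPKM of the 31 genes in both tissues. C1qc, a chain of C1q, had a median of 8.7 RPKM in striatum and 17.7 RPKM in hippocampus (n = 10 each). Medians of C1qa, another chain of C1q, were 6.86 and 13.7 RPKM, and those of Ctss, the lysosomal protease cathepsin S, 4.93 and 7.72 RPKM. At the low end in both tissues stood Selplg, Ptprc, Cd163 and Ms4a7, with striatal medians of 0.239, 0.182, 0.0342 and 0.02 RPKM. The 3 chains of C1q, which assemble in equal numbers into the protein, are encoded side by side on chromosome 4 (GRCm38.p6): C1qb at chr4:136880126-136886200, C1qc at chr4:136889801-136892936 and C1qa at chr4:136895916-136898844. Their RNA levels per length were unequal. C1qc exceeded C1qa in all 20 libraries, by a ratio of 1.03 to 1.6, and exceeded C1qb by a ratio of 4.29 to 8.82. These ratios had similar ranges in striatum and hippocampus, with medians for C1qc over C1qb of 7.08 and 6.51.

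**Figure D1:**
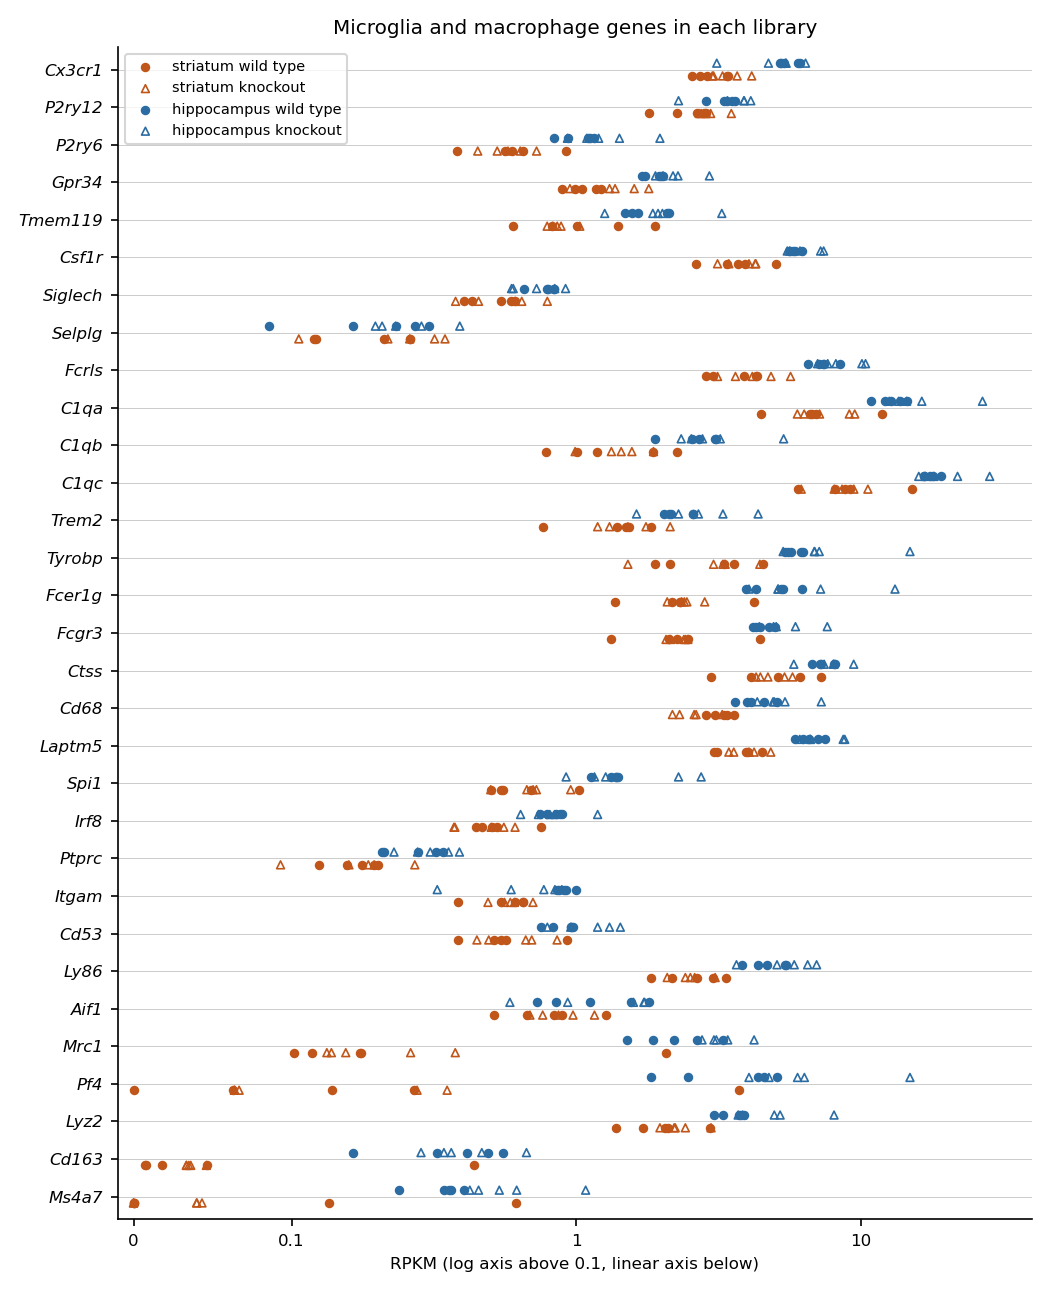
RPKM of the 31 genes in each of the 20 libraries, on an axis that is logarithmic above 0.1 and linear below, with hippocampus in blue, striatum in orange, circles for wild type and triangles for knockout as labelled. For most genes the blue points lie to the right, and the orange circle among the blue points of Mrc1, Pf4, Cd163 and Ms4a7 is striatal wild type 4.

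The promoter sequences of 4 members are shown as examples. In 3 of the 4, chosen for it, GAGGAA lies close to the start. GAGGAA is a form of the element bound by Spi1 (PU.1) and other ETS factors. Each runs from 250 bases before to 50 bases after the annotated start (RefSeq, GRCm38.p6). Capitals mark GAGGAA or its complement on the opposite strand. The window of Trem2, a lipid-sensing receptor, is chr17:48346151-48346450 on the plus strand, C1qb at chr4:136886151-136886450 on the minus strand, Mrc1, the mannose receptor, at chr2:14229164-14229463 on the plus strand, and P2ry12, the ADP receptor of resting microglia, at chr3:59262936-59263235 on the minus strand.
Trem2: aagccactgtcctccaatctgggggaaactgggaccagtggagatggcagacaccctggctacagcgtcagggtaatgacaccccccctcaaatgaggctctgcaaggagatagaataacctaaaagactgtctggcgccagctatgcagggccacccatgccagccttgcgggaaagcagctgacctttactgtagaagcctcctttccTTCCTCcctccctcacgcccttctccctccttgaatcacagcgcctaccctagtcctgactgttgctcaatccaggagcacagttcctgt
C1qb: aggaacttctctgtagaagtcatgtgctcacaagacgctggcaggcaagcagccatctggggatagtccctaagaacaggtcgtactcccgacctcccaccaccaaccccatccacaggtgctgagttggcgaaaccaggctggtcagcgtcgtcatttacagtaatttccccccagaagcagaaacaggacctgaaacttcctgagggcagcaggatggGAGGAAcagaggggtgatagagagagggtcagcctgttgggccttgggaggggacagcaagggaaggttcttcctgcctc
Mrc1: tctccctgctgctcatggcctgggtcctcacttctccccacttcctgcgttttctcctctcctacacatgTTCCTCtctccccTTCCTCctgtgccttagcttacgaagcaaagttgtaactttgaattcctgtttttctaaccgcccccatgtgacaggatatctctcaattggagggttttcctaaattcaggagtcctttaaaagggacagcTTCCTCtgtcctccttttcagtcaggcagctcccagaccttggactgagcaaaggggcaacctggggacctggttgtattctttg
P2ry12: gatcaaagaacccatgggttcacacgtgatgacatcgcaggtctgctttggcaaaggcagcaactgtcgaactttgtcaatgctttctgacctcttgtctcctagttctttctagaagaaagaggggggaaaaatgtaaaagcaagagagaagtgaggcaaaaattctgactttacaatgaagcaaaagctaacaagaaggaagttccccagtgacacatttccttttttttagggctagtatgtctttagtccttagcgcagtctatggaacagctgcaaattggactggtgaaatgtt
The first base of the match lay at -40 in Trem2 and at -30 in C1qb, counted from the annotated start. Mrc1 held 3 matches, at -180, -167 and -35, and P2ry12 held none, though its window holds the shorter GGAA, which was not counted. Of the 31 members 23 had a window in the table, and 16 of these (69.6%) held GAGGAA on either strand, against 31.3% of 27025 genes. From 50 bases before to 10 after the start it was present in 11 of the 23 (47.8%) and in 7.99% of all genes. A composite ETS and IRF pattern, which can overlap GAGGAA, was found in Cd68 alone (4.35%), against 3.16% of all genes. These are matches of letters in a fixed window and were not tested as sites.

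Striatum had less of these RNAs than hippocampus. The comparison used limma on log2(RPKM + 1) over all 20 libraries, as the mean of the 2 striatal groups minus that of the 2 hippocampal groups, with Benjamini-Hochberg adjustment over 14808 genes. Of the 31 members 25 could be tested, and 24 were lower in striatum at an adjusted p below 0.05, where 25.6% of all genes tested were lower. None was higher, against 23.1% of all genes. The member that did not pass was Aif1, the calcium-binding protein known as Iba1. The median difference of the 25 was -0.56 on the log2 scale, with a range of -1.52 to -0.18, and the median over all genes was -0.001. Selplg, Ptprc, Cd163 and Ms4a7 were too low for the filter (at least 0.5 RPKM in at least 5 libraries). Tyrobp and Pf4 each had 1 library whose decimal mark stayed unsure and were left out of this fit. A fit with no filter and with unsure marks kept in took all 31 members. In it 29 were lower in striatum, where 20.2% of all genes were, and Aif1 and Selplg were not. The mean RPKM was lower in striatum for 31 of 31 members.

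**Figure D2:**
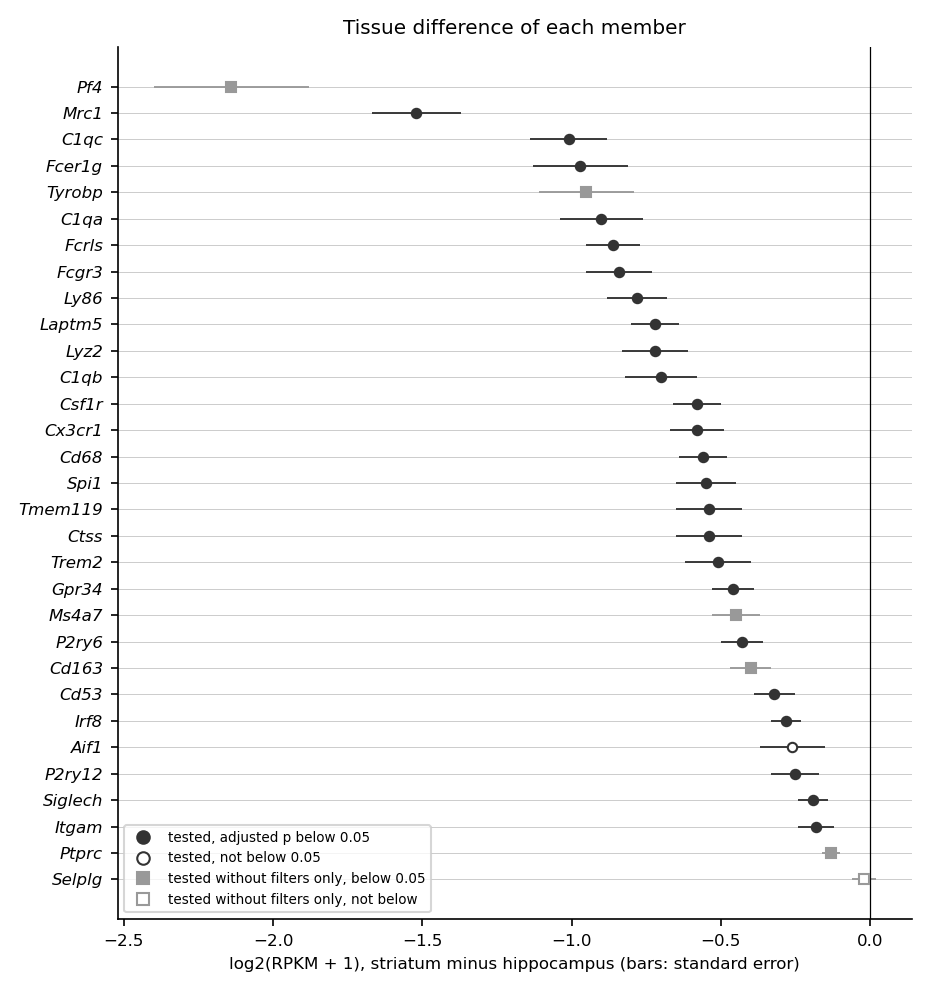
Difference in log2(RPKM + 1) of each of the 31 members, striatum minus hippocampus, with its standard error, as black circles for the 25 members in the limma fit and grey squares for the 6 tested only without filters, filled where the adjusted p was below 0.05. All 31 lie below 0, from Pf4 at -2.14 to Selplg at -0.02.

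Among the receptors of the microglial surface, all 8 that were tested were lower in striatum. Csf1r, the receptor for the survival factors CSF1 and IL-34, stood at 3.4, 3.7, 3.92, 5.03 and 2.63 RPKM in striatal wild type 1 to 5 and at 4.28, 3.14, 3.44, 4.26 and 4.05 RPKM in striatal knockout 6 to 10. In hippocampus it stood at 5.65, 5.79, 5.62, 6.2 and 5.89 RPKM in the libraries labelled wild type and at 5.52, 6.12, 7.41, 7.23 and 5.63 RPKM in those labelled knockout. Every striatal library was below every hippocampal one, and the highest striatal value was that of wild type 4. The difference was -0.58 ± 0.08 (SE, log2 scale, limma adjusted p = 4.03e-06).

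Cx3cr1, the receptor for the neuronal chemokine CX3CL1, stood at 2.72, 2.88, 3.39, 3.43 and 2.56 RPKM in striatal wild type and at 3.68, 3.01, 3.04, 4.14 and 3.27 RPKM in striatal knockout. Its hippocampal values were 5.38, 5.26, 6.03, 6.1 and 5.21 RPKM in wild type and 4.74, 5.47, 3.12, 6.4 and 5.45 RPKM in knockout. The one hippocampal library within the striatal range was that labelled knockout 8. The difference was -0.58 ± 0.09 (limma adjusted p = 1.25e-05), and it missed the threshold among the knockout libraries alone (-0.43, adjusted p = 0.0508). Fcrls, an Fc receptor-like molecule of rodent microglia, ranged from 2.87 to 5.67 RPKM in striatum and from 6.51 to 10.4 RPKM in hippocampus, with no overlap and the largest difference of this group (-0.86 ± 0.09, adjusted p = 1.48e-07). Tmem119, a surface marker of microglia, had medians of 0.871 and 1.9 RPKM and overlapped through striatal wild type 4, at 1.9 RPKM, and wild type 2, at 1.4 RPKM.

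P2ry12 differed least among the receptors with a mean above 1 RPKM in both tissues. It ranged from 1.81 to 3.51 RPKM in striatum, with a median of 2.78, and from 2.29 to 4.11 RPKM in hippocampus, with a median of 3.46. The ranges overlapped broadly, and the difference was -0.25 ± 0.08 (limma adjusted p = 0.0128). It missed the threshold without numbers 5 and 6 (-0.21, adjusted p = 0.0778) and among the knockout libraries alone (-0.18, adjusted p = 0.325). The ratio of Cx3cr1 to P2ry12 had a median of 1.25 in striatum and 1.54 in hippocampus. Gpr34, a receptor for lysophosphatidylserine, and P2ry6, the receptor for UDP, were lower in striatum by ratios of their means of 0.595 and 0.513. Siglech, a sialic acid-binding lectin, differed by -0.19 ± 0.05 and missed the threshold among the knockout libraries alone (-0.14, adjusted p = 0.267). Selplg, the ligand of P-selectin, rested on 6 to 25 reads per library and had close means, 0.222 and 0.237 RPKM.

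The 3 chains of C1q were lower in striatum together. C1qc stood at 8.11, 9.17, 8.8, 15.2 and 6.01 RPKM in striatal wild type and at 8.07, 6.18, 8.6, 10.6 and 9.46 RPKM in striatal knockout. Hippocampal wild type libraries had 16.7, 16.7, 17.9, 19.2 and 17.5 RPKM and those labelled knockout 16.9, 16.0, 28.4, 21.9 and 18.1 RPKM. No striatal value reached a hippocampal one. Striatal wild type 4, at 15.2 RPKM, came closest, and the highest of all was hippocampal knockout 8. The difference was -1.01 ± 0.13 (limma adjusted p = 1.38e-06), and mean RPKM was 2.1-fold higher in hippocampus. Differences of C1qa and C1qb were -0.9 ± 0.14 and -0.7 ± 0.12.

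Of the receptors and adaptors that signal through immunoreceptor motifs, Fcer1g and Tyrobp had the highest ratios of hippocampal to striatal mean RPKM outside the border macrophage genes, 2.44 and 2.26. Tyrobp, the adaptor through which Trem2 signals, stood at 2.14, 3.58, 3.3, 4.53 and 1.89 RPKM in striatal wild type and at 3.04, 1.52, 3.28, 3.34 and 4.42 RPKM in striatal knockout. In hippocampus its values were 5.43, 6.17, 5.56, 6.25 and 5.69 RPKM in wild type and 5.34, 6.89, 14.9, 7.15 and 6.87 RPKM in knockout. The groups did not overlap with the marks placed in this way. The value of striatal knockout 7 could also be 15.2 or 152 RPKM, so this gene entered only the fit with unsure marks kept in (-0.95 ± 0.16, adjusted p = 9.39e-05). Fcer1g, the common gamma chain of Fc receptors, had medians of 2.33 and 5.19 RPKM and a difference of -0.97 ± 0.16 (limma adjusted p = 3.18e-05). Fcgr3, a low-affinity IgG receptor that signals through this chain, differed by -0.84 ± 0.11, and Trem2 by -0.51 ± 0.11. The highest hippocampal value of each of these 4 genes was in knockout 8.

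Cd68, a membrane glycoprotein of late endosomes and lysosomes, ranged from 2.18 to 3.58 RPKM in striatum and from 3.63 to 7.27 RPKM in hippocampus. Laptm5, a lysosomal membrane protein of haematopoietic cells, ranged from 3.05 to 4.83 RPKM and from 5.86 to 8.79 RPKM. Neither overlapped between the tissues, and their differences were -0.56 ± 0.08 and -0.72 ± 0.08 (limma adjusted p = 3.68e-06 and 1.81e-07). Ctss overlapped and differed by -0.54 ± 0.11. The transcription factors Spi1 and Irf8 had striatal means of 0.687 ± 0.18 and 0.511 ± 0.114 RPKM (SD, n = 10) and hippocampal means of 1.5 ± 0.567 and 0.837 ± 0.146 RPKM. Both were lower in striatum, by -0.55 ± 0.1 and -0.28 ± 0.05 (SE, adjusted p = 0.000151 and 0.000219).

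Genes of the surface and cytoskeleton that microglia share with other leukocytes were less uniform. Ly86, a partner of the Toll-like receptor homologue CD180, stood at 1.84 to 3.37 RPKM in striatum and 3.66 to 7.0 RPKM in hippocampus, with no overlap, and differed by -0.78 ± 0.1. Cd53, a tetraspanin of leukocytes, differed by -0.32 ± 0.07. Itgam, the alpha chain of complement receptor 3, differed by -0.18 ± 0.06 (limma adjusted p = 0.0146), with its lowest value of all, 0.325 RPKM, in hippocampal knockout 8. It missed the threshold without numbers 5 and 6 (-0.16, adjusted p = 0.0759) and among the knockout libraries alone (-0.07, adjusted p = 0.631). Ptprc, the leukocyte phosphatase CD45, stood at 0.093 to 0.271 RPKM in striatum and 0.207 to 0.389 RPKM in hippocampus, below the filter. Aif1 was spread widely in hippocampus, from 0.585 to 1.81 RPKM, around a striatal range of 0.515 to 1.27 RPKM. Its difference of -0.26 ± 0.11 did not pass (limma adjusted p = 0.0602). It passed without hippocampal wild type 1 (adjusted p = 0.0332), wild type 6 (0.0459), knockout 5 (0.0122) or knockout 10 (0.047), and without striatal wild type 2 (0.0347). It also passed without numbers 5 and 6 in both tissues (0.0336).

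Of the border macrophage genes, Mrc1, Pf4, Cd163 and Ms4a7 had the widest gaps of all members by ratio of mean RPKM. Their hippocampal over striatal ratios were 7.6, 10.8, 5.79 and 5.52, against at most 2.44 (Fcer1g) in the other members. Lyz2, at 1.98, did not stand out. On the log2(RPKM + 1) scale, which understates low genes, Cd163 and Ms4a7 differed by -0.4 and -0.45 with no filter, less than C1qc (-1.01). Mrc1 stood at 0.118, 0.102, 0.174, 2.07 and 0.176 RPKM in striatal wild type 1 to 5 and at 0.262, 0.133, 0.138, 0.376 and 0.155 RPKM in striatal knockout. In hippocampus it stood at 1.51, 2.66, 1.87, 3.29 and 2.2 RPKM in wild type and at 3.41, 3.11, 3.05, 4.22 and 2.77 RPKM in knockout. Striatal wild type 4 lay inside the hippocampal range, and the other 9 striatal libraries lay below all of it. The difference was -1.52 ± 0.15 (limma adjusted p = 6.7e-08) with wild type 4 and -1.67 ± 0.09 (adjusted p = 6.78e-12) without it. The mean RPKM was 7.6-fold higher in hippocampus, and 15.5-fold higher without wild type 4. Mrc1 passed the filter through its hippocampal level, since 9 of the 10 striatal libraries were below 0.5 RPKM, so a difference was built into its selection. It is 1 of the 24 members called and sets the far end of their range.

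Pf4, the chemokine CXCL4, was also highest in wild type 4 in striatum, at 0.0627, 0.27, 0.139, 3.75 and 0 RPKM in wild type and 0.064, 0.0668, 0.276, 0.352 and 0.0638 RPKM in knockout. The 0 of wild type 5 allows a level of up to 0.177 RPKM (3 reads, counting error only). Hippocampal values were 1.83, 5.07, 4.36, 4.58 and 2.47 RPKM in wild type and 4.76, 4.05, 14.9, 6.0 and 6.34 RPKM in knockout. The mark of hippocampal wild type 1 was unsure, and its value could also be 18.3 or 183 RPKM. Cd163, the scavenger receptor for haemoglobin, ranged from 0.00708 to 0.0463 RPKM in 9 striatal libraries and stood at 0.438 RPKM in wild type 4, against 0.164 to 0.669 RPKM in hippocampus. Ms4a7, a tetraspan membrane protein, had no read in 5 striatal libraries, which allows levels of up to 0.0869 to 0.125 RPKM, and 0.614 RPKM in wild type 4, against 0.238 to 1.08 RPKM in hippocampus. Lyz2, lysozyme M, ranged from 1.38 to 2.98 RPKM in striatum and from 3.05 to 8.06 RPKM in hippocampus (-0.72 ± 0.11, limma adjusted p = 1.3e-05).

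Mrc1, Pf4, Cd163 and Ms4a7 together made up 3.66% to 9.75% of the summed RPKM of the 31 members in hippocampus. In striatum they made up 7.09% in wild type 4 and 0.32% to 1.02% in the other 9 libraries. Leaving Lyz2 out of this sum was a choice made after the values were seen. The 26 members other than these 4 and Lyz2 summed to 43.5 to 87.0 RPKM in striatum, the highest being wild type 4, and to 98.7 to 171 RPKM in hippocampus, with no overlap.

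**Figure D3:**
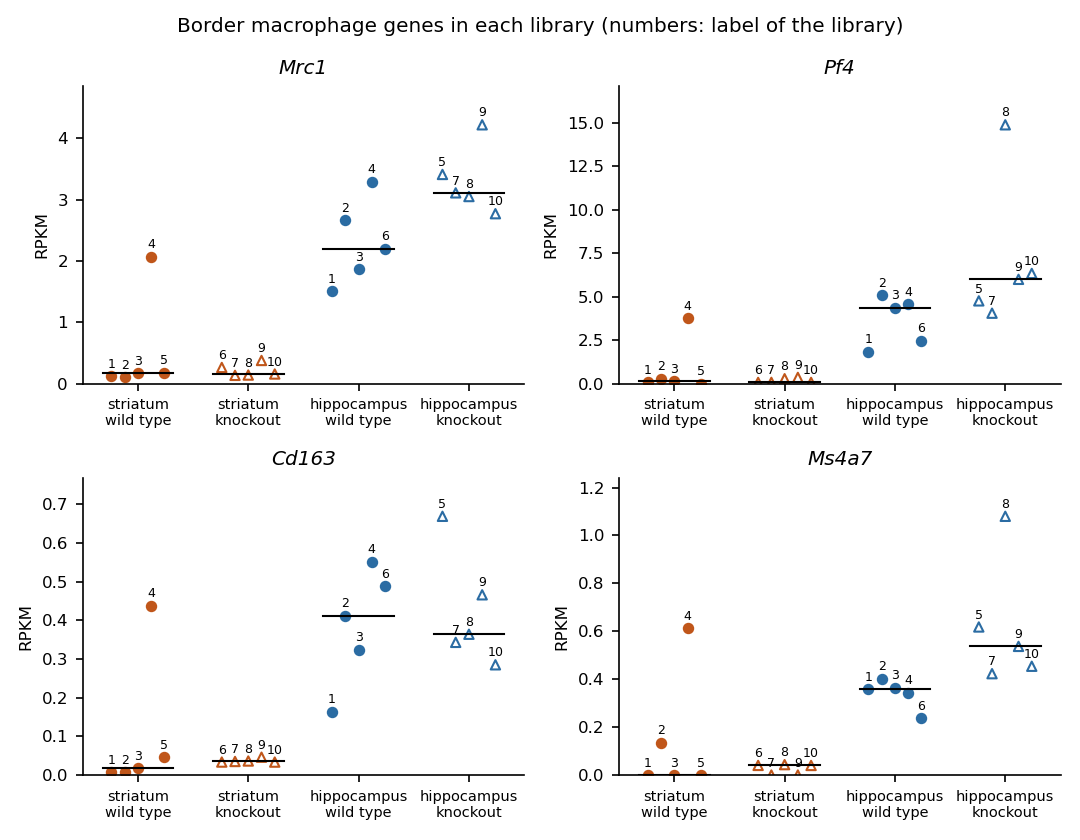
RPKM of Mrc1, Pf4, Cd163 and Ms4a7 in each library by group, with the library's number beside each point and the group median as a bar. In striatum wild type 4 stands alone, at 2.07 RPKM for Mrc1 against 0.102 to 0.376 RPKM in the other 9, and the hippocampal libraries lie between 1.51 and 4.22 RPKM.

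In 8 of the 31 members every striatal library was below every hippocampal one: Csf1r, Fcrls, C1qc, Tyrobp, Cd68, Laptm5, Ly86 and Lyz2. Of the 25 tested members 7 did so, where 6.56% of all genes tested did. No member had the opposite order, which 8.42% of all genes had. Without striatal wild type 4 the count was 18 of 31 and 14 of the 25, against 10.3% of all genes. Without hippocampal knockout 8 as well it was 19 of 31 and 15 of the 25, against 14.6%. The number of members called lower was 24 without either library and 24 without both. Of all genes, 3966 of 14775 were called lower without striatal wild type 4 and 4524 of 14767 without hippocampal knockout 8. Without both it was 4795 of 14733. Members shared a pattern of single libraries. Striatal wild type 4 was the highest striatal library in 18 of 31 members, striatal wild type 5 the lowest in 18, hippocampal wild type 1 the lowest of its tissue in 10 and hippocampal knockout 8 the highest in 20.

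Genes of some other cells moved with the tissue difference, and those of others did not. Of the 9 meningeal fibroblast genes 6 were tested and all 6 were lower in striatum, where 25.6% of all genes were, with a median of -2.38 on the log2 scale. Their summed level was 4.55 to 28.1 RPKM in striatum without wild type 4, 144 RPKM in wild type 4, 127 to 172 RPKM in hippocampus without knockout 8 and 436 RPKM in knockout 8. Of the 7 choroid plexus genes 5 were tested and 3 were lower, with sums of 2.27 to 19.1 RPKM in striatum and 330 to 1550 RPKM in hippocampus, the highest being knockout 8. Of the 8 endothelial genes 7 were lower, with sums of 60.2 to 83.0 and 87.3 to 125 RPKM. The filter could be passed through the hippocampal level alone, so for genes low in striatum a difference was built into these counts. Among markers of blood leukocytes, Ccr2 and Chil3 of monocytes and Cd3e, Cd3g, Ms4a1 and Nkg7 of lymphocytes stood below 0.1 RPKM in every library. The whole list of 11 monocyte and neutrophil genes summed to at most 2.06 RPKM in striatum and to 1.76 to 10.8 RPKM in hippocampus, the highest being knockout 10. The 7 lymphocyte genes went the other way from the members, with sums of 0.784 to 1.78 RPKM in striatum and 0.0834 to 0.535 RPKM in hippocampus. Astrocyte genes summed to 171 to 303 RPKM in striatum and 139 to 247 RPKM in hippocampus. Neuron genes summed to 1600 to 1980 and 1560 to 1730 RPKM, and both lists overlapped between the tissues. What part tissue at the borders of the brain had in the level of the 31 genes was not tested.

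Other genes of microglia and macrophages, 81 in all, did not all go the same way. Of the 51 tested, 34 were lower and 6 higher in striatum, where 25.6% of all genes were lower and 23.1% higher. Some passed the filter through the tissue where they were high, so a difference was built into their selection. Apbb1ip, Cd33, Tlr2, C3ar1, Ccl3, Irf5 and Tlr7, all called lower, passed it within hippocampus but not within striatum. Irf5 and Tlr7 reached at most 0.486 and 0.362 RPKM in striatum. Cebpa, at 0.266 to 0.566 RPKM in striatum, and Ikzf1, at 0.273 to 0.93 RPKM in hippocampus, did not pass the filter within those tissues. The largest differences among the lower were those of Lpl, lipoprotein lipase, at 3.7 RPKM in striatum and 32.8 in hippocampus (-2.85 ± 0.09), Spp1, osteopontin (-2.14 ± 0.22), and Cebpa, a myeloid transcription factor (-2.0 ± 0.07). Cd9, a tetraspanin, and the border macrophage genes F13a1, a coagulation factor subunit, and Lyve1, a hyaluronan receptor, followed, at -1.71 ± 0.08, -1.78 ± 0.2 and -1.71 ± 0.14. Higher in striatum was foremost Ikzf1, a relative of Helios, at 16.5 RPKM against 0.46 RPKM (3.55 ± 0.12). Mef2c and Sall3, both transcription factors, Cx3cl1, the ligand of Cx3cr1, Entpd1, an ectonucleotidase, and Inpp5d, the phosphatase SHIP1, were higher by 1.68 ± 0.2, 0.94 ± 0.1, 0.82 ± 0.13, 0.64 ± 0.07 and 0.17 ± 0.06. Several of these genes, Lpl, Cd9, Mef2c and Cx3cl1 among them, are also expressed by neurons or other brain cells. The striatal mean of Ikzf1, 16.5 RPKM, was above the striatal median of every member, the highest being C1qc at 8.7 RPKM. Which cells carried Ikzf1 was not tested. Cx3cl1, at 19.1 RPKM in striatum and 9.99 RPKM in hippocampus, had its higher mean in the tissue with the lower mean of its receptor.

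Genotype moved none of the 31 members past the threshold in striatum. There 24 members were tested with limma in the 10 striatal libraries. No member and no gene of 14677 was called (0% of all genes), and 1 member had an unadjusted p below 0.05 (4.03% of all genes did). A fit with limma voom on the recovered reads called no member and also had 1 below 0.05. Ikzf2 itself differed by -0.91 ± 0.11 (adjusted p = 0.0835). The member was Cd68, at 3.58, 3.31, 3.07, 3.4 and 2.85 RPKM in wild type and 2.31, 2.18, 3.26, 2.64 and 2.6 RPKM in knockout. Of the knockout libraries only knockout 8 reached the wild type range. The difference of -0.24 ± 0.09 had an unadjusted p of 0.0205 and a limma adjusted p of 0.986. Without numbers 5 and 6 it was -0.25 ± 0.1 (limma adjusted p = 0.95). Next came Gpr34 (0.21 ± 0.1, adjusted p = 0.986) and P2ry12 (0.19 ± 0.1, adjusted p = 0.986). Values above 0 were seen for 16 of the 24 and below 0 for 8, and 49.5% of all genes lay above 0. This split rested on single libraries: it was 21 and 3 without wild type 4, against 50.3% of all genes, and 11 and 13 without numbers 5 and 6. In the latter fit 7200 of all 14537 genes lay above 0. In no member were the knockout libraries all above or all below the wild type libraries, which 0.334% and 0.477% of all genes showed.

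In hippocampus 26 members were tested and none was called by limma, as was no gene of 14405 (0%). Unadjusted p-values below 0.05 were found for 2 members, where 4.57% of all genes had one, and for 3 with limma voom. Mrc1 had a mean of 2.31 ± 0.693 RPKM in the libraries labelled wild type and 3.31 ± 0.555 RPKM in those labelled knockout (SD, n = 5 each). By the values given above, knockout 7, 8 and 10 lay below wild type 4, and the groups overlapped. The difference was 0.4 ± 0.14 (unadjusted p = 0.019, limma adjusted p = 0.72). Without numbers 5 and 6 it was 0.38 ± 0.18, and its unadjusted limma p, 0.0646, was no longer below 0.05 (adjusted p = 0.698). Lyz2 stood at 3.05, 3.79, 3.28, 3.88 and 3.73 RPKM in wild type and at 3.71, 3.85, 8.06, 5.21 and 4.97 RPKM in knockout, highest in knockout 8. The difference was 0.4 ± 0.16 (adjusted p = 0.72) with that library and 0.25 (adjusted p = 0.457) without it. Without numbers 5 and 6 it was 0.5 ± 0.18 (limma adjusted p = 0.698). Cd68 followed (0.27 ± 0.12, adjusted p = 0.72, 0.17 without knockout 8 and 0.25 without numbers 5 and 6).

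Values above 0 were seen for 23 of the 26 hippocampal members, with a median of 0.17, where 48.5% of all genes lay above 0. Without knockout 8 the count was 20 and the median 0.07, where 44.7% of all genes lay above 0. Without numbers 5 and 6 and knockout 8 it was 24, with a median of 0.12, where 6529 of all 14167 genes lay above 0. No member was called in that fit, though 13 genes of 14167 were. Ms4a7 was the one member with all knockout libraries above all wild type libraries, at 0.357, 0.402, 0.364, 0.344 and 0.238 RPKM against 0.618, 0.423, 1.08, 0.537 and 0.454 RPKM. The closest pair stood at 0.402 and 0.423 RPKM, and the values rested on 6 to 18 reads. Of all genes tested 0.757% had this order, a set that Ms4a7, too low for the filter, was not in. Ikzf2 goes against the labels of knockout 5, at 0.618 RPKM, and wild type 6, at 0.238 RPKM. Without these libraries the order stayed, and with their labels exchanged the groups would overlap. No member had all knockout libraries below all wild type libraries, against 1.66% of all genes. Meningeal fibroblast genes moved with these values too: all 6 tested lay above 0 in hippocampus, none of them called, with sums of 127 to 150 RPKM in wild type and 127 to 436 RPKM in knockout. Their part in the genotype values was not tested.

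**Figure D4:**
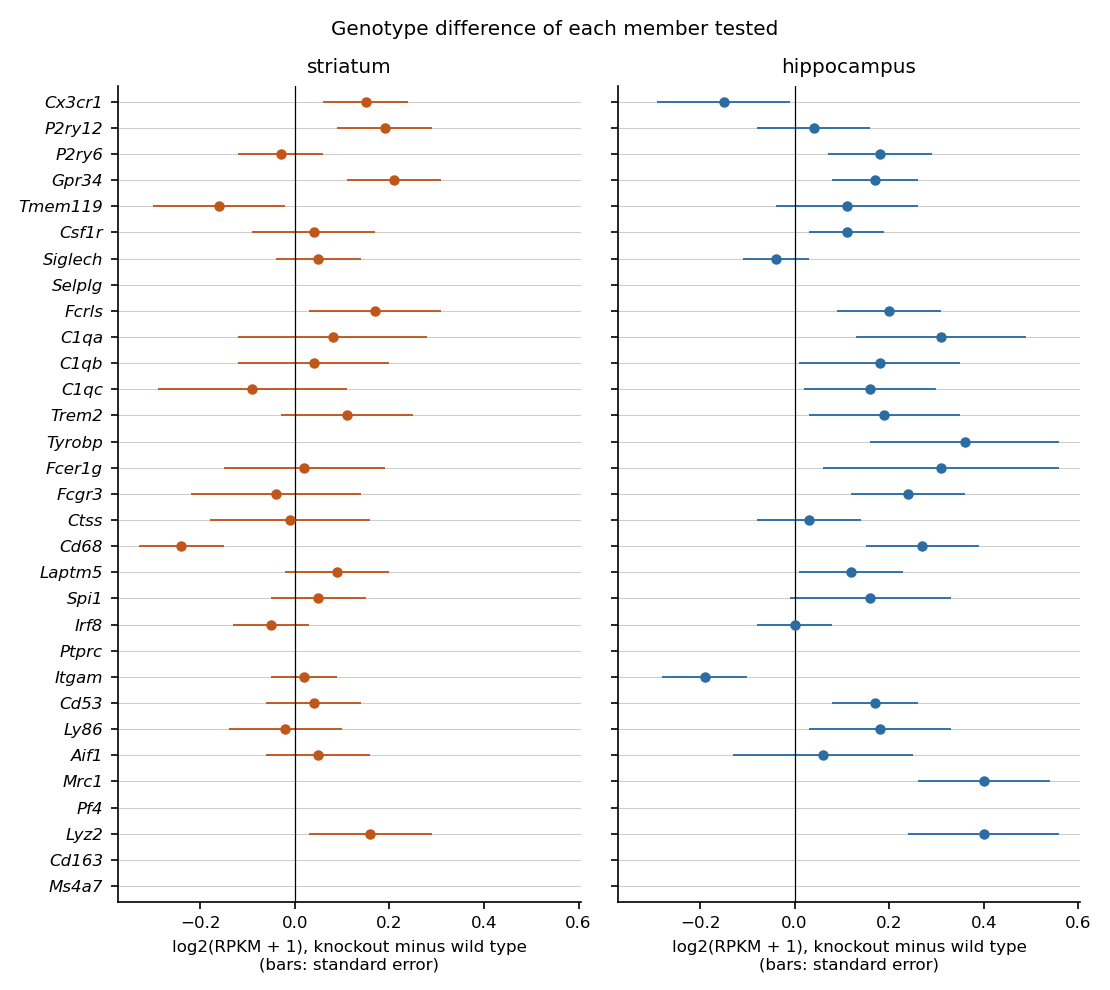
Difference in log2(RPKM + 1) of each member tested, knockout minus wild type as labelled, with its standard error, in striatum (24 members) and hippocampus (26 members). No member passed an adjusted p of 0.05 in either panel; Cd68 lies at -0.24 in striatum and 0.27 in hippocampus.

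Whether the genotype difference depended on the tissue was tested for 25 members. None was called by limma, as was none of 14808 genes (0%). An unadjusted p below 0.05 was found for 1 member with limma and 1 with limma voom, where 3.43% of all genes had one with limma. In the limma fit this was Cd68, with a difference between the genotype differences of -0.51 ± 0.15 (unadjusted p = 0.00333, limma adjusted p = 0.807). Without hippocampal knockout 8 it was -0.41 ± 0.12 (adjusted p = 1.0), and without numbers 5 and 6 it was -0.5 ± 0.18 (adjusted p = 0.789). Among the other 81 genes of microglia and macrophages no genotype difference was called either, with 1 of 40 in striatum and 3 of 50 in hippocampus at an unadjusted p below 0.05, counts that limma voom also gave. In striatum 15 of the 40 lay above 0, where 7266 of all 14677 genes did. Without wild type 4 it was 32, where 7346 of all 14597 genes did. The gene with an unadjusted limma p below 0.05 in striatum was Lgals3, galectin-3 (0.31 ± 0.09, limma adjusted p = 0.986). In hippocampus such genes were Spp1, Dab2, an endocytic adaptor, and Lyve1 (0.67 ± 0.17, 0.34 ± 0.1 and 0.4 ± 0.15, limma adjusted p = 0.72 for each). Lyve1 also had the smallest p of this list for the dependence on tissue (-0.69 ± 0.28, adjusted p = 0.807).

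Hippocampal knockout 8 deviated by the length of the gene. Of the 15 members with a counted length under 1500 bases, 13 were higher in this library than in any other hippocampal library. Of the 6 members over 3500 bases 1 was higher and 2 were lower than in all others. Tyrobp, counted over 569 bases, stood at 14.9 RPKM against 5.34 to 7.15 RPKM, and Cx3cr1, counted over 3729 bases, at 3.12 RPKM against 4.74 to 6.4 RPKM. Both limits of length were chosen after the values were seen. The trend over all genes of this library went the same way, as given at the start. Its sums of meningeal fibroblast and choroid plexus genes, 436 and 1550 RPKM, were also the highest in hippocampus. The part of such tissue in its values was not tested.

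**Figure D5:**
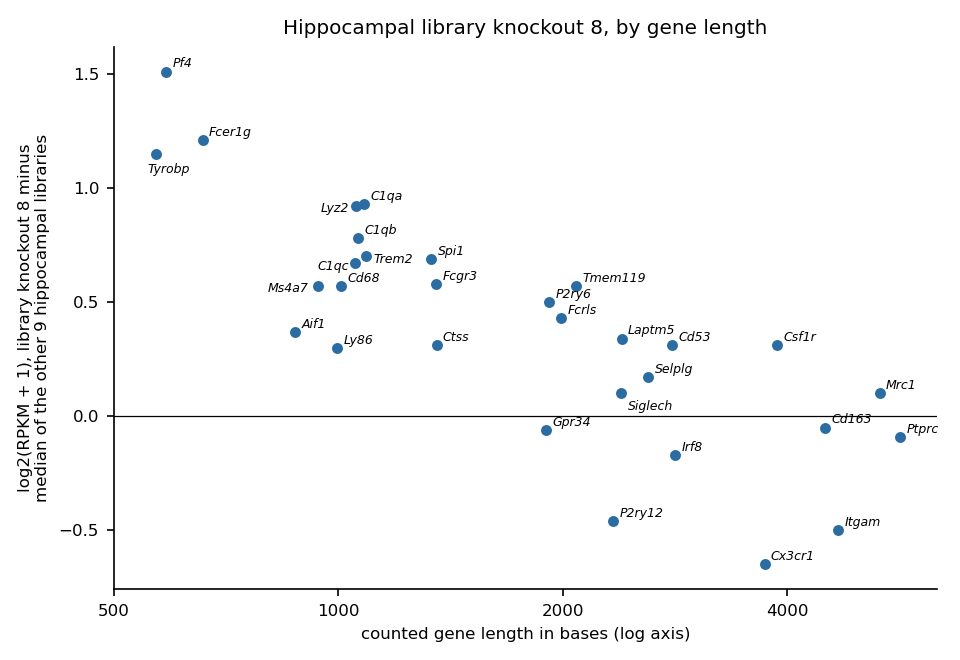
Difference in log2(RPKM + 1) between the hippocampal library labelled knockout 8 and the median of the other 9 hippocampal libraries, for each of the 31 members, against the counted gene length in bases on a log axis. The 3 shortest, Tyrobp, Pf4 and Fcer1g, lie above 1, and Cx3cr1, Itgam and P2ry12 lie lowest.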

How the data were processed

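RNA of 20 libraries was sequenced on a NextSeq instrument after a stranded mRNA library preparation, per the labels' protocols. The submitters' processing notes name the mouse build mm10, the aligner BWA 0.7.4, the trimmer cutadapt 1.3 and the counters featureCounts and HTSeq, beside DESeq2, SAMtools, FastQC 0.11, bcl2fastq 2.15.0 and CASAVA 1.8.2, and do not say which step made which value. The values used are the RPKM deposited by the authors, 1 table of 27179 genes. Of its values 51.1% had lost their decimal mark. Marks were restored from the fact that an RPKM is a whole number of reads over gene length and library size. Lengths and marks were accepted only where nonzero values fell within 0.001 of a whole number of reads, and all 27179 genes had such a solution. More than 1 place of a mark can meet this rule, so meeting it does not check the place. The place was chosen by gene length and closeness to the other libraries of the tissue. Genes with an unsure mark, 362 in striatum and 747 in hippocampus, were left out of the fits. The rules of restoration were revised several times after the data, members' values included, were seen. They were judged by whole reads, gene lengths and library totals, not by differences between groups. A restored value leans to the other libraries of its tissue, which can hide a library that differs 10-fold or more. The authors' tables of comparisons had lost their marks too and were not used.

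Tests used limma 3.58.1 in R 4.3.3, with trend and robust settings, on log2(RPKM + 1), which understates the fold change of low genes. Genes entered with at least 0.5 RPKM in at least 5 of the libraries fitted, and p-values were adjusted by Benjamini-Hochberg over all genes tested, with a threshold of 0.05. Genotype was tested within each tissue, and tissue and its interaction with genotype over all 20 libraries. Restoration and fits were tested on simulated data. Intervals and limits for a count of 0 cover counting error only. The library labelled knockout 10 of hippocampus has striatum in its tissue field and hippocampus in its title, and was used as hippocampus. Libraries of the 2 tissues share numbers, and their descriptions share codes that the labels do not explain. Same-numbered libraries deviated together, with a correlation over 0.1, in 8 of 10 pairs. Pairing was to be used only if every pair did so or the labels stated it, so the fits have no block. The members, the lists and the tests were chosen with earlier results of these data known. All 31 members are named. Of the other microglia and macrophage genes, the 6 with the largest difference per direction among those called are named, and otherwise up to 3 with the smallest p. Further ones are named only for how they passed the filter. Alternatives were other pseudocounts, filters, scalings and fits, limma voom on the recovered reads, and leaving out libraries.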

Additional observations from a re-analysis of the deposited data

Results flagged for a closer look

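In each group of 5 libraries the highest and the lowest value of each of the 31 members were set against the rest of the group with Dixon's ratio, and 12 of 124 sets (9.68%) held a value that stood apart. Chance gives about 1 in 20 for a single set. The sets are not independent, since the same libraries recur over the 31 members.

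Striatal wild type 4 held 5 of the 12, all high, and 4 of these were border macrophage genes. Mrc1 stood at 2.07 RPKM there against 0.176 RPKM in the next library of its group, Pf4 at 3.75 against 0.27 RPKM, Cd163 at 0.438 against 0.0463 RPKM and Ms4a7 at 0.614 against 0.135 RPKM. The other was Irf8, at 0.755 against 0.529 RPKM. This library also had 144 RPKM summed over meningeal fibroblast genes, and the part of such tissue in these values was not tested.

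Hippocampal knockout 8 held 4, all high and all in short genes. C1qa stood at 26.8 RPKM against 16.4 RPKM, C1qb at 5.36 against 3.21 RPKM, Tyrobp at 14.9 against 7.15 RPKM and Pf4 at 14.9 against 6.34 RPKM. The same library had the highest hippocampal sums of meningeal fibroblast and choroid plexus genes, 436 and 1550 RPKM. What part such tissue or gene length had in these values was not tested. Hippocampal wild type 1 was low in Siglech, at 0.658 RPKM against 0.792 RPKM, and in Spi1, at 1.13 against 1.33 RPKM. Striatal knockout 9 was high in Cd163, at 0.0461 against 0.0362 RPKM, which rested on 6 reads against 4.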

How the results depend on the processing

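The count of members lower in striatum, 24 of 25, was 24 to 25 when any 1 library was left out. It was 24 with pseudocounts of 0.1 and 0.5, quantile normalization, median centring, limma voom, no trend or among wild type libraries alone, 20 of 21 with a filter of 1 RPKM, 23 without numbers 5 and 6 and 20 among knockout libraries alone. With other sets of genes it was 26 of 27 with unsure marks kept in, 27 of 29 with no filter and 29 of 31 with both, the last chosen after seeing the data, as were the fits without more than 1 doubted library. Of all genes, 3789 of 14808 were called lower in the main fit and 3161 of 14683 without numbers 5 and 6. Among knockout libraries alone it was 2240 of 14348 and among wild type libraries alone 3316 of 14274. With 1 library left out it was between 3564 of 14779 and 4524 of 14767. With a filter of 1 RPKM it was 3435 of 13573 and with no filter 4518 of 22233. No member was called for genotype or its interaction with tissue in any fit run, and no direction of a called member turned. Of the values of single members 1048 kept their side of the threshold, 6 lost a call (Cx3cr1, Siglech, P2ry12 and Itgam) and 8 gained one, all of Aif1. The numbers of the libraries were not shown to pair them. With number as a replicate block 25 of 25 members were lower in striatum, Aif1 among them (adjusted p = 0.0253), and none was called for the interaction (0). Own number was the best match in 3 of 10. Depth limits Ms4a7, Cd163, Selplg and striatal Pf4 most, and unsure marks limit Tyrobp and Pf4.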
